A study of Mus musculus with 6 samples.

Results

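Mouse cultures labelled as embryonic fibroblasts that lack Trex1, a DNA exonuclease of the cytosol, were compared after transfection with DNA and after mock treatment. The pair was taken by the sample titles TKO-ISD and TKO-Mock and holds 2 of the 6 arrays of the series, with 1 array on each side. A probe was used when its detection fraction, the share of negative controls that it outshines on an array, was above 0.99 on at least 1 of these 2 arrays. Of 45281 probes on the array, 16051 met this rule, of which 14397 were detected on both arrays, 600 only after DNA and 1054 only on the mock array. The other 29230 probes were detected on neither. At the edge of the rule, the 82 probes just inside it, with a highest fraction of 0.9904, had log2 differences of -0.75 to 1.24, and the 62 probes just outside it, at 0.9893, had differences of -1.04 to 1.33.

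The series also holds a wild-type pair (WT) and a pair deficient in both STING and Trex1 (STKO), each again with a mock and an ISD array. ISD, interferon stimulatory DNA, is double-stranded DNA given by transfection, here at 4 µg/ml for 6 h. All cultures came from midgestation embryos of the strain given as C57BL6/129Sv. How the mock cultures were handled, and how many embryos stand behind a culture, is not given in the sources used here. With 1 array in each group no p-value or error can be given, no difference could be checked in a replicate, and every value below describes these arrays alone. Levels are log2 normalized intensities, on which 1 unit is a 2-fold step, and a probe or gene is called higher or lower at 2-fold.

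The titles and a second label do not agree. A genotype field gives Sting +/+ for TKO ISD, STKO mock and STKO ISD, and Sting -/- for TKO mock, WT mock and WT ISD, so by that field the TKO pair would differ in Sting as well as in treatment. The arrays are called by their titles throughout. The probe of Sting1, the gene of STING, read 7.34 on WT mock and 8.92 on WT ISD. It read 7.13 on TKO mock and 8.06 on TKO ISD, against 5.81 and 5.64 on the STKO arrays. Both TKO arrays therefore lay above both STKO arrays for Sting1, and the TKO pair differed by 0.94. The Trex1 probe read 10.00 and 12.62 on WT mock and ISD, 9.36 and 9.84 on TKO mock and ISD, and 7.56 and 8.09 on STKO mock and ISD. Trex1 was detected on all 6 arrays, and whether either probe lies in a deleted part of its gene is not known, so neither settles the genotype.

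All 12 listed fibroblast markers, among them the collagens Col1a1 and Col1a2 and the mesenchymal filament gene Vim, were detected on both TKO arrays. The same held for all 9 macrophage markers on the array. The macrophage growth factor receptor Csf1r read 12.70 to 13.49 over the 6 arrays, and the macrophage surface protein Adgre1 (F4/80) read 13.41 to 13.98. From TKO mock to TKO ISD the macrophage markers differed by -0.54 to 0.62, and none was called, while Pdgfrb was the only fibroblast marker called, at -1.08. The summed linear level of the macrophage markers was 111607 on TKO mock and 103458 on TKO ISD, against 84002 and 75606 on the WT arrays. The fibroblast markers summed to 22679 and 21148 on the TKO arrays, against 27097 and 22110 on the WT arrays. The macrophage marker Fcer1g, an Fc receptor subunit, was not detected on either WT array and read 15.02 and 15.01 on the TKO arrays. The macrophage sums include Fcer1g, and their excess on the TKO arrays over the WT arrays rests on this 1 probe. The sums therefore do not show more macrophage RNA in the TKO cultures. Endothelial, epithelial and muscle markers were undetected on both TKO arrays (0 of 6, 0 of 7 and 0 of 5), with 1 of 6 lymphocyte, 2 of 6 neural and 1 of 5 adipocyte markers detected. The fibroblast label is thus in doubt, since macrophage markers were detected beside the fibroblast ones on arrays of every genotype, and the cultures are called by their titles. The part of macrophage RNA in the results below was not tested, and in such bulk samples a smaller number of cells and less RNA per cell cannot be told apart.

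DNA in the cytosol is bound by cGAS, which makes a cyclic dinucleotide that activates STING. STING recruits the kinase TBK1, which activates the transcription factor IRF3, and it also activates NF-kB. IRF3 and NF-kB together switch on interferon beta and a first set of chemokines. Secreted interferon then acts through its receptor to switch on genes that carry the interferon-stimulated response element (ISRE), IRF7 among them, and IRF7 in turn serves the interferon alpha genes. TREX1 degrades cytosolic DNA and so restrains this pathway, and its loss is known to leave it active without added DNA.

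After DNA, 639 of the 16051 probes in TKO cells were higher (3.98%) and 235 were lower (1.46%). At 4-fold, 99 were higher (0.617%) and 9 lower (0.0561%), while a threshold of 1.5-fold gave 1592 higher (9.92%) and 1296 lower probes (8.07%). The median over all tested probes was -0.06. Of the higher probes, 177 were not detected on the mock array, where the fold is only a lower bound, and 536 of the 639 remained above 2-fold when each such mock level was set at its floor. Of the lower probes, 129 were not detected on the ISD array, and 138 of the 235 remained at least 2-fold lower with the ISD level at its floor. The balance of the calls rests on the scaling between the arrays. When each array was scaled to a common median in place of quantile normalization, the split was 457 higher and 500 lower, and the median of all tested probes moved from -0.06 to -0.23. Counted by genes, with the brightest probe standing for each, 343 of 9155 genes were higher (3.75%) and 147 lower (1.61%). Most of the higher probes were also induced in the wild-type pair, where 590 of the 639 were detected on at least 1 array and 517 were 2-fold higher. For 69 of the 639 the wild-type difference was under 1.5-fold upward, some of them undetected on both WT arrays.

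**Figure D1:**
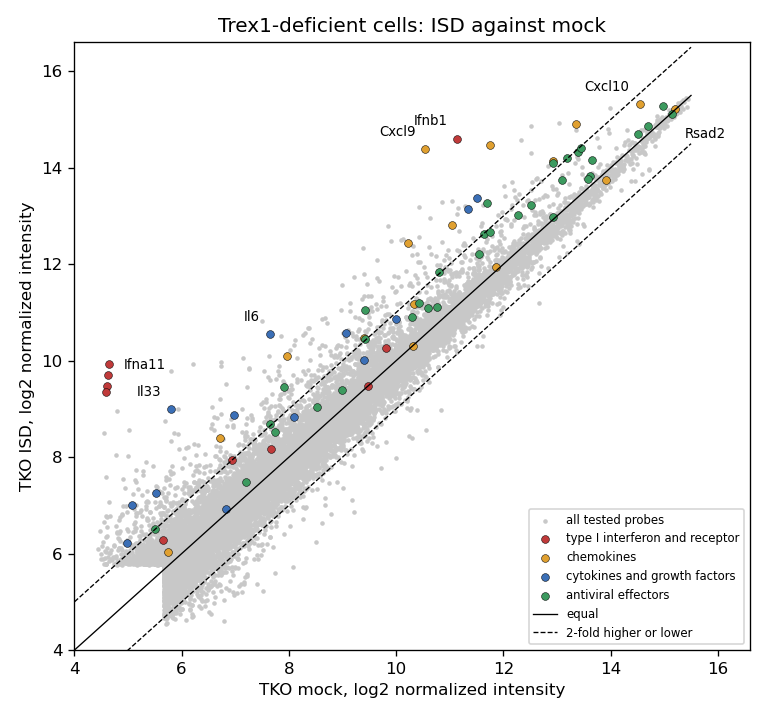
Level of each tested probe on the TKO mock array (x) and the TKO ISD array (y), both log2 normalized intensity, with 4 gene lists in colour, a solid line at equality and dashed lines at 2-fold. Ifna11, Ifna5, Ifna2 and Ifna4 start at 4.59 to 4.64 and reach 9.36 to 9.94, Cxcl9 and Ifnb1 start at 10.54 and 11.14 and end at 14.39 and 14.61, and Rsad2 lies on the line of equality.

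The promoters of 4 genes are printed because their genes stand for the kinds of response described below: an interferon alpha gene off in the mock culture (Ifna4), interferon beta (Ifnb1), a chemokine near the top of the scale (Cxcl10) and an antiviral gene with a raised mock level (Ifit3). Each is the 300 bases from 250 before to 50 after the gene's start in RefSeq on GRCm38.p6, read 5′ to 3′ along the gene. They lie at chr4:88841566-88841865 (plus strand) for Ifna4, chr4:88522745-88523044 (minus) for Ifnb1, chr5:92348840-92349139 (minus) for Cxcl10 and chr19:34583279-34583578 (plus) for Ifit3. Capitals mark matches, on either strand, to the ISRE letters (GAAA, any 2 bases, GAAA) or the NF-kB letters (GGGA, any 4 bases, CC). No base fell in both motifs.
Ifna4: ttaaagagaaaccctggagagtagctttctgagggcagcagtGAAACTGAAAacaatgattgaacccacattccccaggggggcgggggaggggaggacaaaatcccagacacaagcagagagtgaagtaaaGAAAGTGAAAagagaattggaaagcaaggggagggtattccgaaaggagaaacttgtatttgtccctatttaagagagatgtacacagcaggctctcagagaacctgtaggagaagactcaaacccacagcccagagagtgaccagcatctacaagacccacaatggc
Ifnb1: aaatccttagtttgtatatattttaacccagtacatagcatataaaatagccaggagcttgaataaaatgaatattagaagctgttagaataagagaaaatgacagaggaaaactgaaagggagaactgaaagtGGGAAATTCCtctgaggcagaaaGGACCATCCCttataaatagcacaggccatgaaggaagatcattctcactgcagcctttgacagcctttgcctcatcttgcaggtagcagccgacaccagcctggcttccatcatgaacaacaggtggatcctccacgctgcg
Cxcl10: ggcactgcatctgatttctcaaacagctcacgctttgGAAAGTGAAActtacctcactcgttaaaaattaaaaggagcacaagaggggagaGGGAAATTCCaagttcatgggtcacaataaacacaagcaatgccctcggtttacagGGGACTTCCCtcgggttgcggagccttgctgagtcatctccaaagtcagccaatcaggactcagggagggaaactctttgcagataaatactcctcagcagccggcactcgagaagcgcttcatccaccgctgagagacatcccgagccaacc
Ifit3: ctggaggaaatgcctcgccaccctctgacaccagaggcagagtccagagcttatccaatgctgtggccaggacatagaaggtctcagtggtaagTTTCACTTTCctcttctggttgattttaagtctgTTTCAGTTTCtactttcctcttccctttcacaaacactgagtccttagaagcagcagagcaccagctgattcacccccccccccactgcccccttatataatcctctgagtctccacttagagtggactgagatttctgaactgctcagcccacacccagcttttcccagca
The Ifna4 window held 2 ISRE matches and no NF-kB match, that of Ifnb1 0 and 2, that of Cxcl10 1 and 3, since its last run of capitals matches on both strands, and that of Ifit3 2 and 0. Over 32851 RefSeq promoters of the same length, 1131 (3.44%) held the ISRE letters. Of the tested genes with a promoter, 309 of 7470 (4.14%) held them, and of the genes called higher in TKO cells, 48 of 265 (18.1%). For the NF-kB letters the shares were 20.7%, 30.3% (2266 of 7470) and 35.1% (93 of 265). A match is a description of the letters and not a binding site.

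Interferon beta was already on in the mock TKO culture, while most probes of interferon alpha genes were not detected there. Ifnb1, interferon beta, read 11.14 on TKO mock and 14.61 on TKO ISD, a rise of 3.46. On WT mock it was not detected, and on WT ISD it read 14.63, so the Trex1-deficient mock culture lay at least 49.5-fold above the wild-type one and both ended 0.02 apart. On the STKO arrays it read 4.74 and 7.12. Ifnb1 thus had a raised starting level and the same end level as in wild type.

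No interferon alpha gene tested had a mock level 2-fold above wild type. Ifna11, Ifna5, Ifna2 and Ifna4, which encode subtypes of interferon alpha, read 4.64, 4.62, 4.60 and 4.59 on TKO mock, where none was detected. On TKO ISD they read 9.94, 9.70, 9.47 and 9.36, which is higher by at least 4.28, 4.04, 3.80 and 3.70 log2 units (19.4-fold for Ifna11). In raw intensity Ifna11 went from 75.2 to 905, and Ifna4 from 73.1 to 609. On WT ISD the same probes read 11.95, 11.91, 10.94 and 10.15, so the TKO end levels lay 2.01, 2.21, 1.48 and 0.80 below wild type. A second Ifna6 probe behaved likewise, from 4.55, not detected, to 8.50 in TKO cells, at least 7.17-fold, against 11.16 on WT ISD. None of these probes exceeded 4.63 on either STKO array. Other interferon alpha probes differed less. The brighter Ifna6 probe, which stands for the gene in the list, was detected on all 6 arrays and read 6.93 on TKO mock and 7.95 on TKO ISD (2.02-fold, and 0.76 in log2 units without background correction), against 6.69 and 9.77 in wild type. Ifna1 was not detected on TKO mock and reached 6.29 on TKO ISD, at least 1.54-fold higher and not called. Ifna9 was undetected in both TKO cultures and reached 7.84 on WT ISD. The interferon alpha genes are near copies of each other, and a probe may pick up more than one of them.

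The list of type I interferons and their receptor held 16 genes on the array, of which 10 were tested. The others were detected on neither TKO array and were left out. Of the 10 tested genes, 5 met the rule through TKO ISD alone, which favours a rise in the count and the median. Among the 10 genes 6 were higher, beside 3.75% of all tested genes, and none was lower. The list median was 2.24, against -0.08 over all tested genes, and it was the same with the 5 genes undetected on the mock array set at their bounds. It was 3.29 in wild type, where 8 of 11 genes were higher. Here and below, a wild-type list value is over the genes detected on at least 1 WT array. These are not always the genes tested in TKO cells. The receptor subunit Ifnar2 and the kinase Tyk2 were not called, with differences of 0.51 and 0.45, and the receptor kinase Jak1 read 9.48 on both TKO arrays. Other settings moved the Ifna differences by more than 1.5-fold. Ifna11, for instance, rose by 3.81 without background correction, against 5.30 with it.

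**Figure D2:**
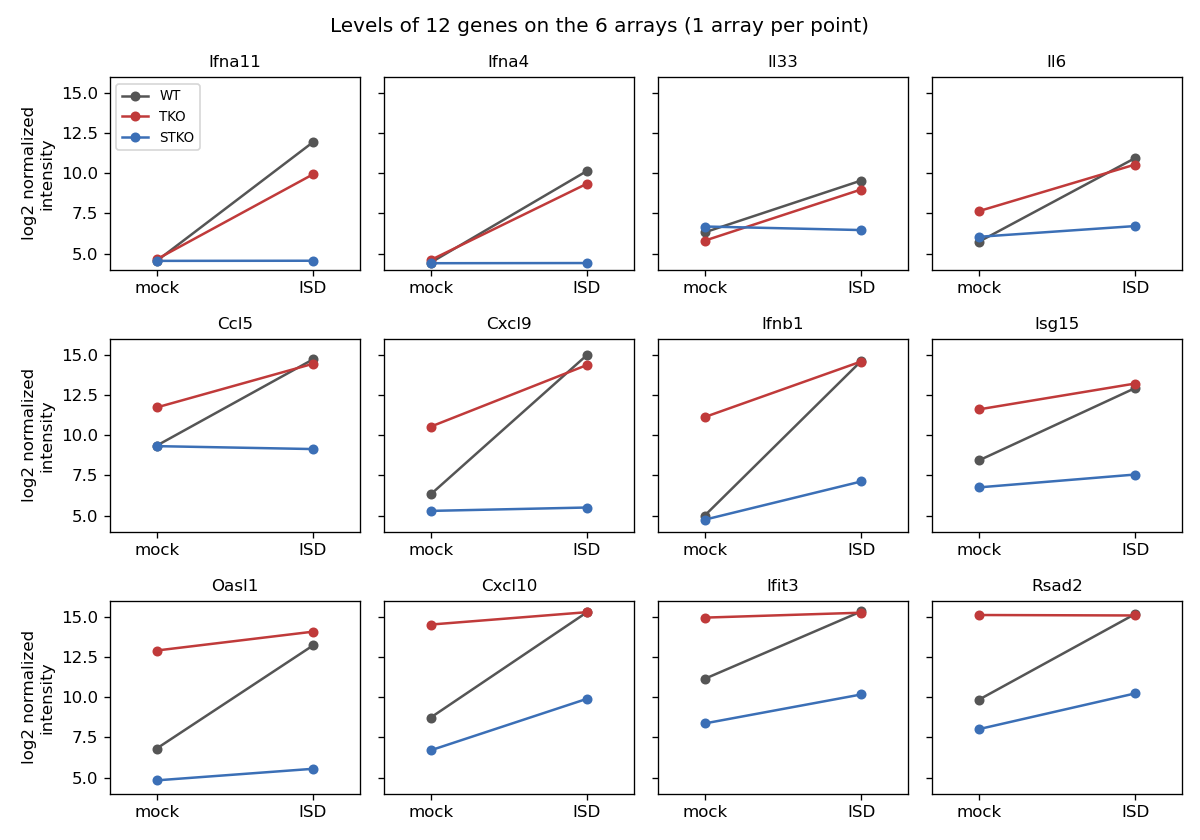
Log2 normalized intensity of 12 genes on mock and ISD arrays of WT (grey), TKO (red) and STKO (blue) cells, 1 array per point, joined within a genotype. The WT and TKO mock points nearly coincide for Ifna11 and Ifna4, lie far apart for Ifnb1, Oasl1, Cxcl10, Ifit3 and Rsad2, and the ISD points of the last 3 genes differ by 0.09 at most.

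Of the DNA sensing genes, Cgas, the DNA sensor itself, read 11.66 on TKO mock and 11.86 on TKO ISD, while in wild type it read 10.16 and 12.03. Of the 16 tested 3 were higher, beside 3.75% of all tested genes, and none was lower, with a median of 0.41 against 1.48 in wild type, where 9 of 16 were higher (7.31% of all genes tested there). The genes called were Samhd1, a triphosphohydrolase that depletes nucleotides (11.29 to 12.39), Aim2, an inflammasome DNA sensor (9.09 to 10.16), and Ifi204, a member of the Ifi200 family of DNA-binding proteins (8.97 to 10.03). Without background correction or with median scaling only 1 of the 3, Samhd1, stayed above 2-fold. Irf3 read 10.97 and 10.55, and Tbk1 read 11.84 and 12.33, neither called.

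Among the 10 RNA sensing genes 5 were higher, beside 3.75% of all tested genes, and none lower. The median was 1.02 against 3.08 in wild type. Ifih1, the RNA sensor MDA5, rose from 8.61 to 10.87 (4.80-fold). Tlr3, the endosomal receptor for double-stranded RNA, rose from 7.29 to 8.87, and Ddx58, the RNA sensor RIG-I, from 9.73 to 10.84. The list also holds Isg15, a ubiquitin-like modifier, which rose from 11.62 to 13.23 (3.06-fold), and Tlr2, a receptor for bacterial lipopeptides, which rose from 12.30 to 13.47. Of these 10 genes 8 were already at least 2-fold above wild type on the mock array, beside 4.54% of all tested genes.

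All 13 tested transcription factors of the response had differences above 0, and 3 passed 2-fold, beside 3.75% of all tested genes. Batf2, an interferon-inducible partner of IRF1, rose from 9.64 to 12.08 (5.44-fold), Rel, an NF-kB subunit, from 7.21 to 8.69, and Irf8 from 9.29 to 10.62. Irf7, which drives the interferon alpha genes, read 11.67 on TKO ISD, 0.68 above TKO mock, while in wild type it rose from 7.83 to the same 11.67. Stat2 read 10.17 and 10.47 in TKO cells, against 7.90 and 10.58. The list median was 0.68, against 1.45 in wild type, where 12 of 13 were higher. Irf7 and Stat2 thus stood well above the wild-type mock level before DNA was added.

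Of 16 chemokines tested, 9 were higher, beside 3.75% of all tested genes, and none lower. The median was 1.15 against 2.47 in wild type. Cxcl9, which attracts activated T cells through CXCR3, rose from 10.54 to 14.39 (14.4-fold), while in wild type it rose from 6.32 to 15.02 (415-fold). Ccl5, which attracts T cells, rose from 11.74 to 14.47 (6.62-fold), and from 9.36 to 14.74 in wild type (41.8-fold). The monocyte attractants Ccl12, Ccl8, Ccl2 and Ccl7 rose 4.65-, 4.38-, 3.42- and 2.31-fold. Cx3cl1, the membrane-bound fractalkine, rose from 6.71 to 8.40 with mock levels that differed from wild type by 0.17 only. Ccl3, which attracts macrophages and T cells, rose from 13.35 to 14.92 (2.96-fold) and ended 0.58 above WT ISD. By contrast Cxcl9, Ccl5, Ccl2, Ccl7, Ccl8 and Ccl12 ended below their wild-type ISD levels, by 0.28 to 1.33.

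Cxcl10, the other main CXCR3 ligand, was not called. It read 14.54 on TKO mock and 15.32 on TKO ISD, a 1.71-fold difference, while in wild type it read 8.74 and 15.32, a 95.4-fold rise. The end levels were the same, and TKO mock stood 5.80 above WT mock. Ccl4 read 15.20 and 15.21 by its brightest probe. The homeostatic chemokines Cxcl12 and Cxcl16, and Ccl9, differed by -0.01, 0.08 and -0.18.

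Of 13 cytokines and growth factors tested, 9 were higher, beside 3.75% of all tested genes, and none lower. The median was 1.72, against 1.84 over the 14 genes tested in wild type, so the sets differ. With the 3 genes undetected on the mock array at their bounds, 8 were higher and the median was 1.503. Il33, an alarmin of the interleukin 1 family, rose from 5.80 to 8.99, and from 6.32 to 9.55 in wild type (9.38-fold). Il6 rose from 7.64 to 10.55 (7.51-fold), and from 5.73 to 10.95 in wild type (37.4-fold). Tnf rose 3.62-fold, from 11.52 to 13.37, and ended 1.01 above its wild-type ISD level. Il15, which sustains natural killer and memory T cells, rose 3.51-fold, Tnfsf10, the death ligand TRAIL, 3.72-fold, and Csf1, the macrophage growth factor, 2.84-fold. Il1b was not detected on TKO mock and rose at least 3.00-fold, to 7.25, but stayed 3.01 below WT ISD. Il33 and Csf1 had TKO mock levels below those of wild type, and rose 9.14- and 2.84-fold against 9.38- and 2.19-fold in wild type, whereas Il6, Tnf and Il15 had mock levels 1.91 to 2.10 above wild type.

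By the rule of the largest rise among probes detected on both arrays, the 12 leading genes were Il27, Cxcl9, Upp1, Ifnb1, Serpina3f, Gbp5, Il33, Has2, Cish, Tnfsf15, Acod1 and Il15ra. Il27, a subunit of interleukin 27, rose from 5.81 to 9.79 (15.8-fold) and ended 0.20 above WT ISD. Upp1, uridine phosphorylase, rose from 6.21 to 9.93 (13.1-fold), and its second probe, not detected on TKO mock, rose at least 7.42-fold. Serpina3f, a serine protease inhibitor, rose 10.1-fold, Acod1, which makes itaconate in activated macrophages, 7.66-fold, and Il15ra, which presents interleukin 15, 7.57-fold. Has2, the hyaluronan synthase, rose from 6.73 to 9.90 (9.01-fold), and Tnfsf15, a tumor necrosis factor family ligand, from 5.94 to 8.99 (8.30-fold). For dim probes the size depends on the background step. Without background correction the rises of Il27, Upp1, Il33, Tnfsf15 and Cish were 3.07, 2.98, 2.33, 2.26 and 2.17, against 3.99, 3.72, 3.19, 3.05 and 3.07.

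The antiviral effectors were the largest list. Of 33 tested genes, 9 were higher, beside 3.75% of all tested genes, and none lower, with a median of 0.73. In wild type 28 of 33 were higher, beside 7.31% of all genes tested there, with a median of 2.63. On the mock arrays 27 of the 33 were already at least 2-fold higher in TKO than in WT cells, beside 4.54% of all tested genes. Their TKO ISD levels lay at a median of -0.02 from WT ISD. Rsad2 (viperin, which makes a chain-terminating nucleotide) read 15.14 and 15.11 in TKO cells and 9.85 and 15.20 in wild type. Ifit3, which binds foreign RNA together with its family members, read 14.98 and 15.28, against 11.16 and 15.36. Mx1, a GTPase active against orthomyxoviruses, still rose, from 9.41 to 11.06 (3.12-fold), while its wild-type probe was not detected on mock and reached 10.85. Isg20, an RNA exonuclease, and Ch25h, which makes 25-hydroxycholesterol, rose 2.92- and 2.96-fold, and Oasl1, a repressor of Irf7 translation, rose from 12.92 to 14.10.

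Several of these calls lay at the threshold. Parp14, Parp9, Rnf213, Sp100 and Trim30a were 2.00- to 2.07-fold higher, and Parp9 was undetected on mock with a bound of 1.81-fold. The count of 9 was 8 with the bound, 5 without background correction, 5 with an offset of 50, 6 by the authors' processed values, 8 with the TKO arrays normalized alone and 4 under median scaling. Mx1, Isg20, Ch25h and Oasl1 stayed above 2-fold in each of these settings.

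The interferon-inducible GTPases, which attack the vacuoles of intracellular pathogens, and the Ifi200 genes listed with them all had raised mock levels. Of 11 tested genes 9 were higher, beside 3.75% of all tested genes, and none lower, with Irgm1 and Gvin1 not called at 0.46 and 0.62. The median was 1.49 against 4.78 in wild type. All 11 had a TKO mock level at least 2-fold above WT mock, beside 4.54% of all tested genes. Gbp5 rose from 10.09 to 12.49 by its brightest probe (5.30-fold) and from 6.74 to 9.97 by another (9.40-fold). Gbp2 rose from 13.03 to 14.93, Gbp3 from 12.01 to 13.63, Igtp from 12.20 to 13.55 and Tgtp1 from 7.32 to 8.81. The Gbp genes are close paralogs and a probe may read more than one.

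Some genes, singled out after their values were seen, stood above wild type on both TKO arrays. Ifi205, an Ifi200 family member, read 11.15 and 13.16 in TKO cells against 4.61 and 10.04 in wild type, and Ifi213 read 11.55 and 12.09 against 4.71 and 8.10 by the probe with the largest mock difference. Ifi211 read 9.08 and 10.41 in TKO cells and was not detected on either WT array. Trim30a, an antiviral and NF-kB-limiting TRIM protein, read 10.80 and 11.83 against 4.89 and 7.71. On STKO mock and ISD Trim30a read 8.47 and 8.68, whereas Ifi205 read 4.71 and 5.79, Ifi213 4.55 and 4.70, and Ifi211 4.95 and 5.76. On WT mock none of these 4 was detected. Their end levels lay 3.13 to 5.86 above WT ISD, while that of Oasl1, also with a raised mock level, lay 0.86 above. Whether the cultures differ in other ways than Trex1, such as strain background, was not tested, and it bears on the raised mock level of these 4 genes. Gm4951, a predicted gene with a raised mock level, read 11.27 and 12.45 against 5.99 and 11.31.

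Of 22 antigen presentation genes 4 were higher, beside 3.75% of all tested genes, and none lower. The median was 0.51 against 1.32 in wild type. Cd274, the inhibitory ligand PD-L1, rose from 12.52 to 14.30 (3.42-fold) and ended 0.71 above WT ISD. Nlrc5, the activator of MHC class I genes, rose from 9.09 to 10.63. Tap1, a subunit of the peptide transporter, and Tapbpl, a peptide editor, rose 2.30- and 2.19-fold. The other 18 genes, most of them class I chains and proteasome subunits, lay between -0.02 and the 2-fold line.

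Of 15 negative regulators tested, 5 were higher and 1 was lower, beside 3.75% and 1.61% of all tested genes. The median was 0.66. Cish and Socs3, inhibitors of cytokine receptors, rose from 5.68 to 8.75 (8.37-fold) and from 9.22 to 11.73 (5.69-fold), in both cases from a mock level below that of wild type. Socs1, the inhibitor of interferon signaling, rose from 6.57 to 8.70 (4.36-fold). Tnfaip3 (A20) and Nfkbie, which restrain NF-kB, rose 2.68- and 2.39-fold. Usp18, which removes Isg15 and blocks the interferon receptor, read 13.77 on TKO mock and 14.43 on TKO ISD, against 10.06 and 14.54. Dusp4, a phosphatase of MAP kinases, fell from 10.85 to 8.97, and from 9.63 to 7.42 in wild type.

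Adhesion and costimulation genes gave 4 higher of 10 tested, beside 3.75% of all tested genes, and none lower. The list median was 0.48 against 0.76 in wild type. Vcam1 rose from 10.13 to 12.52 (5.27-fold), Cd40 from 11.03 to 13.31 (4.85-fold), the chemokine-binding receptor Ccrl2 from 10.43 to 12.57 (4.42-fold) and Icam1 from 10.19 to 11.87 (3.20-fold). Icam1 had mock levels that differed by 0.01 between TKO and WT cells, and rose 4.68-fold in wild type. In the STKO pair Icam1 and Ccrl2 also rose past 2-fold, by 1.56 and 1.46 in log2 units, against 1.68 and 2.15 in TKO cells. Vcam1 and Cd40 rose there by 0.77 and 0.53, against 2.40 and 2.28.

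Of 21 genes of p53, cell death and stress 6 were higher, beside 3.75% of all tested genes, and none lower. The median was 0.65 against 0.48 in wild type. Fas, the death receptor, rose from 8.25 to 10.53 (4.86-fold). Bbc3 (PUMA), an activator of apoptosis, rose from 8.39 to 10.02 (3.10-fold), against 8.87 to 9.72 in wild type. Casp4, the inflammatory caspase-11 of mice, rose 2.80-fold, Mlkl, the executor of necroptosis, 2.31-fold, and the cell cycle inhibitor Cdkn1a (p21) 2.29-fold. Sesn2, a stress-induced regulator of mTORC1, rose from 5.79 to 7.65 in TKO cells while it read 6.84 and 6.63 in wild type. On the STKO arrays Sesn2 read 6.53 and 7.45. Among immediate early genes 3 of 10 were higher, beside the same 3.75%, Ier3 at 3.50-fold, Egr1 at 3.04-fold and Klf4 at 2.32-fold. All 3 had TKO mock levels below WT mock, but a low TKO mock reading also favours such a call.

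**Figure D3:**
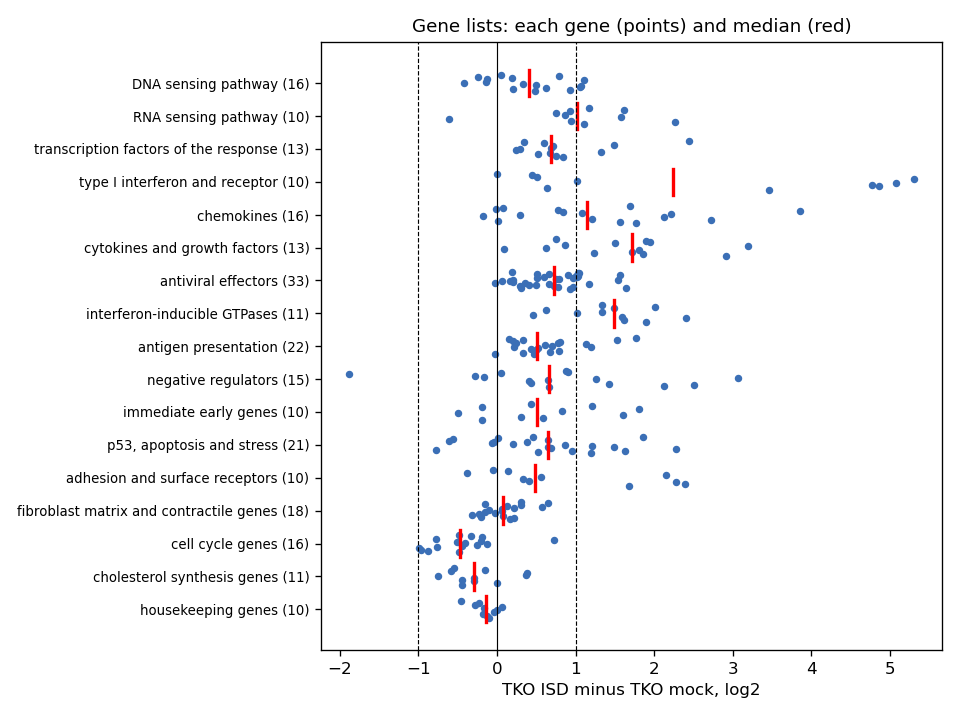
TKO ISD minus TKO mock (log2) for every tested gene of 17 lists, with the number tested in parentheses, red bars at the list medians and dashed lines at 2-fold. The medians run from 2.24 for type I interferons to -0.46 for cell cycle genes, and the fibroblast, cholesterol and housekeeping lists have no gene past the dashed lines.

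No gene was called on the lists of fibroblast matrix genes (18 tested, median 0.07), cholesterol synthesis genes (11, median -0.30) or housekeeping genes (10, median -0.14). None of the 16 cell cycle genes was called either, but 15 of them had differences of 0 or below and the median was -0.46. The kinases Aurka and Plk1 were at -0.996 and -0.96, just inside the line, and under median scaling 4 of the 16 were called lower.

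The 8 largest falls among probes detected on both arrays were those of Gpr183, Cnr2, Sesn1, Pdgfb, Mbp, Fam78a, Cdca7 and Irf2bp2. Gpr183, the oxysterol receptor EBI2, fell from 9.22 to 6.86 (5.14-fold), and from 10.47 to 6.34 in wild type. Cnr2, the cannabinoid receptor of immune cells, fell from 8.51 to 6.23 (4.85-fold), and without background correction by 1.67 on the log2 scale in place of 2.28. Sesn1, a p53 target of the sestrin family, fell 4.18-fold, Pdgfb, a mesenchymal growth factor, 4.05-fold, and Mbp 3.95-fold. Fam78a, Cdca7 and Irf2bp2, a corepressor partner of IRF2, fell 3.87-, 3.85- and 3.71-fold. All 8 also fell in the wild-type pair, by 3.26- to 19.1-fold, where 905 of 16666 probes were lower (5.43%), and for 7 of the 8, all but Cdca7, the TKO mock level lay below that of WT mock, by 0.06 to 1.54.

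How far a raised mock level went with a smaller further rise was read on the 1243 probes induced 2-fold or more in wild type (7.46% of 16666). They were banded by how far TKO mock lay above WT mock. In the band under 1.5-fold were 624 probes, with a median TKO rise of 0.89 against 1.43 in wild type. In the band of 1.5- to 4-fold were 472 probes, with medians of 0.76 and 1.87. In the band of 4-fold or more were 147 probes, with medians of 1.18 and 3.78. As a share of the same probe's wild-type rise, the TKO rise had a median of 61.0%, 40.9% and 31.3% from the lowest to the highest band. The TKO rise equals the wild-type rise less the raise of the mock level, plus the difference in end level. With like end levels the share must therefore fall from band to band by arithmetic, so its fall is no separate finding. The probes were also chosen for their wild-type rise, which lowers the share in every band.

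The share was lower in each higher band, but the rise itself was not. Of the probes raised 4-fold or more, 91 of 147 still passed 2-fold in TKO cells (61.9%), against 266 of 624 (42.6%) in the lowest band and 162 of 472 (34.3%) in the middle one. The highest band also holds the probes with the largest wild-type responses, so the bands were compared again within classes of the wild-type rise, which was chosen after the data were seen. Among probes induced 4- to 16-fold in wild type, the median TKO rise was 1.47, 1.11 and 0.92 from the lowest to the highest band (118, 189 and 65 probes). Among those induced 16-fold or more it was 2.99, 2.32 and 1.61 (15, 15 and 70 probes). In both classes the rise was smaller in each higher band. The same arithmetic holds within a class, so this order is partly built in. Among those induced 2- to 4-fold it was 0.81, 0.57 and 0.76, with 12 probes only in the highest band. The 15-probe bands are also thin.

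The end level contains no mock array. TKO ISD minus WT ISD had a median of -0.46 in the lowest band, -0.08 in the middle one and 0.11 in the highest. Within the class induced 16-fold or more the medians were -2.01, -0.54 and -0.11, and within the class of 4- to 16-fold -0.81, -0.27 and 0.19. Within the class of 2- to 4-fold they were -0.38, 0.07 and 2.28, so the 12 raised probes of that class ended well above WT ISD. In each class the end level was higher in each higher band. It shares the WT ISD array with the choice of the probes and their classes, so a high reading there lowers the end level, and it is no independent support. The TKO rise and the band share the TKO mock array, and the band and the wild-type rise share the WT mock array, so an error on either moves both values. The part of these shared arrays was not tested. When the bands were set by the mean of both TKO arrays instead, the share of the wild-type rise was 54.6%, 49.2% and 36.6%, and the percentage past 2-fold was 26.9%, 39.2% and 66.0%. The order of the shares held under that banding, and the order of the percentages turned in the lower bands. The mean still contains TKO mock and is set against WT mock, so that banding is not free of the arithmetic either.

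**Figure D4:**
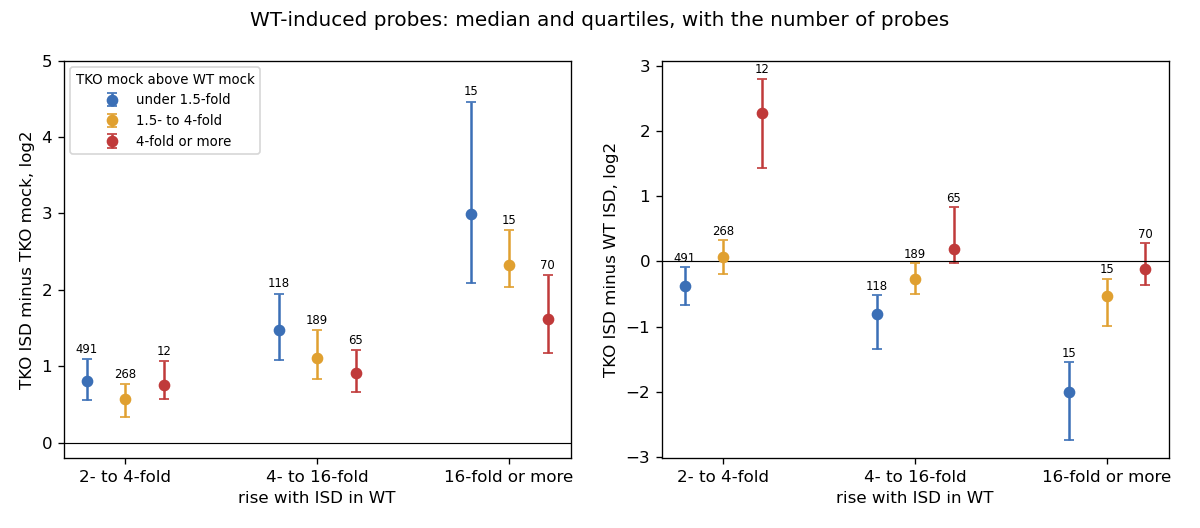
WT-induced probes by the size of their rise in WT (x) and by how far TKO mock lay above WT mock (colour), showing the median and quartiles of the TKO rise on the left and of TKO ISD minus WT ISD on the right, in log2 units, with the number of probes above each bar. In the classes of 4- to 16-fold and 16-fold or more the TKO rise is smaller, and the end level nearer to or above that of wild type, in each higher band.

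The highest level was 15.44 on all 6 arrays, since quantile normalization makes it equal, with raw maxima of 41117.7 to 48100. This top of the scale is thus that of the normalized values. Several of the genes with the smallest further rise started close to it. For Rsad2, Ifit3, Cxcl10 and Ccl4, whose TKO mock levels were 14.54 to 15.20, a rise of 2-fold could not have been shown. Of the 5 WT-induced probes at 14 or more on TKO mock, none passed 2-fold, and their median TKO rise was 0.31 against 4.20 in wild type. Of the 20 probes at 13 to 14, 5 passed, with medians of 0.82 and 2.97. Of the 41 at 12 to 13, 18 passed, with medians of 0.88 and 1.89, and of the 73 at 11 to 12, 23 passed, with medians of 0.77 and 1.87. The median TKO rise was thus no smaller at 12 to 14 than at 11 to 12, and only that of the 5 brightest probes was lower. The wild-type rise was larger at 13 to 14 than at 11 to 13, so the levels were not matched for it. These medians therefore do not tell where the top of the scale begins to limit a rise. The near equal end levels of Cxcl10, Ifit3 and Rsad2 on TKO and WT ISD also lie at the top of the scale. A much higher TKO end level could not have been shown there, while a lower one could. When probes at 13 or more on any WT or TKO array were left out, the shares of the wild-type rise by band were 60.9%, 41.0% and 31.5%, so the order of the bands was also seen without the brightest probes.

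Genes read by a bright and a dim probe allow a comparison within the same RNA. Here brighter and dimmer were set by the TKO mock level. That level also enters the TKO rise, so a high reading there makes a probe the brighter one and lowers its rise. Among 30 WT-induced genes whose brighter probe read 13 or more on TKO ISD, the median TKO rise was 0.96 by the brighter probe and 1.18 by the dimmer one, and the dimmer probe gave the larger rise in 21. Among 160 genes with a brighter probe under 13 the medians were 0.86 and 0.84, and the dimmer probe was larger in 83. The dimmer probes had a median TKO mock level of 9.35 among the 30 genes and 7.15 among the 160. The 2 groups thus also differ in how dim the dimmer probe was, and changes of dim probes are understated. Ccl4, a chemokine, rose by 0.01 by its brighter probe and by 1.26 by its dimmer one. On TKO ISD these probes read 15.21 and 15.24, so the dimmer one also ended near the top of the scale. Ifit3 rose by 0.31 and 1.11, Irf1 by 0.85 and 1.69, Usp18 by 0.66 and 1.25, and Oasl1 by 1.18 and 1.94. The dimmer probe of Cxcl10 gave 0.88 in place of 0.77. Ccl4, Ifit3, Irf1 and Usp18 would therefore be called higher by their dimmer probe and were not by the brighter one, while Cxcl10 was below 2-fold by both. Other genes of the 30 went the other way. Cd69 rose by 2.35 by its brighter probe and 0.60 by its dimmer one, Cd40 by 2.28 and 1.10, and Mmp13 by 2.26 and 1.25.

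**Figure D5:**
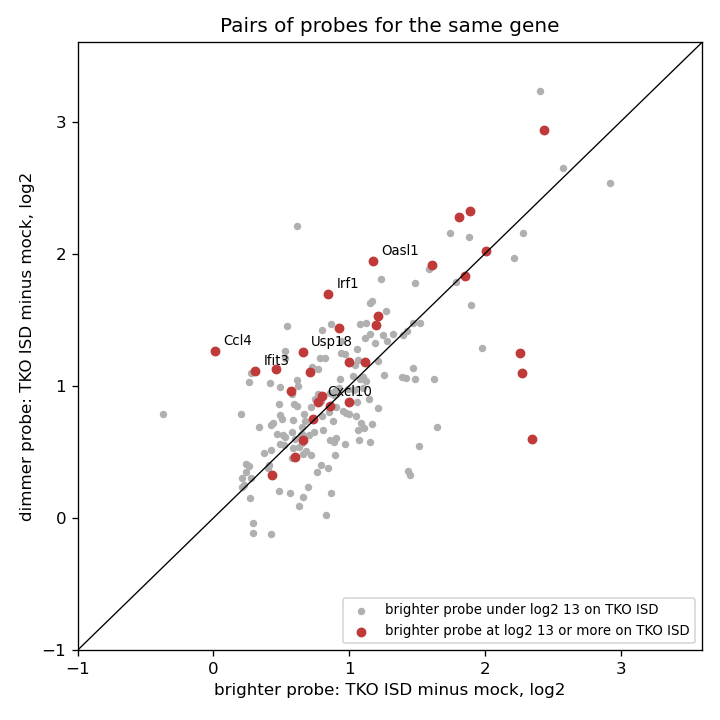
TKO ISD minus TKO mock (log2) by the brighter (x) and the dimmer (y) probe on TKO mock of the same WT-induced gene, in red where the brighter probe read 13 or more on TKO ISD, with a line at equality. Of the 30 red points 21 lie above the line, Ccl4 and Ifit3 at the left among them.

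In the pair deficient in both STING and Trex1, 35 of 9293 genes were higher after ISD (0.377%) and 3 lower (0.0323%). Ccl5, Cxcl9, Il6 and Il33 read 9.33, 5.29, 6.04 and 6.68 on STKO mock and 9.15, 5.50, 6.71 and 6.46 on STKO ISD. Cxcl10 and Rsad2 went from 6.70 to 9.91 and from 8.02 to 10.25, and Ifnb1 from 4.74, not detected, to 7.12. For all 7 genes both STKO arrays lay below TKO ISD, and for 6 of them, all but Il33, both also lay below TKO mock. Some other genes called in TKO cells rose about as much in the STKO pair. Tlr2, Klf4 and Nfkbie rose there by 1.21, 1.14 and 1.11, against 1.17, 1.22 and 1.26 in TKO cells. With 35 genes higher in the STKO pair, most of the 343 genes higher in TKO cells were not called there.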

How the data were processed

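RNA of mouse cultures labelled as embryonic fibroblasts was measured on 6 Illumina arrays, 1 per group, grouped by the sample titles. Per the labels, biotinylated cRNA was hybridised. The authors deposited a table with an intensity and a detection fraction for each of 45281 probes on each array, and their file name calls it non-normalized. The scanner software is not given in the sources used here, nor is the array version. The fractions are whole multiples of 1 over 936 within 0.0047, and were read as the share of negative controls below a probe. A probe counted as detected at a fraction above 0.99. The authors also deposited processed log2 values, each probe centred on its median over the arrays, with the direction matched to the raw table and the normalization between arrays unknown. No column was left without a sample (0 unused).

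Intensities were background-corrected from 1 minus the detection fraction, given an offset of 16 and quantile-normalized over the 6 arrays with neqc of limma 3.58.1 in R 4.3.3. The other steps used Python 3.11.15 and pandas 2.3.3. The counting was checked on simulated data. On the array, detected probes per array numbered 14488 to 16177 and median raw intensities were 76.8 to 85.3. The number of arrays limits the precision. Differences are on the log2(intensity + offset) scale, which understates changes of dim probes. Where a probe was undetected on the dim array, its fold is a lower bound, taken against the higher of its own level and the lowest detected level there.

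Genes were named through GEO's platform annotation, with 34885 probes of 1 symbol, 18 of several and 10378 of none. The probe with the highest mean level over the arrays stood for a gene. Named genes are the 12 largest rises and 8 largest falls among probes detected on both TKO arrays, the 6 largest bounds, the 8 WT-induced genes with the most raised TKO mock level and the 6 WT-induced genes with the largest TKO rise among those with TKO mock under 1.5-fold above WT mock, list genes past 2-fold, and 8 fixed genes. A WT-induced gene was 4-fold or more higher in wild type for this choice. A sum of markers is over linear intensities without the offset. The members and the gene lists were chosen with earlier results of these data known. Because 1 array stands for each group, no test was run. Alternatives were no background correction, an offset of 50, median scaling, the TKO arrays normalized alone, the authors' log2 values, detection on both arrays or at a fraction above 0.95, thresholds of 1.5-fold and 4-fold, other bands, and all probes of a gene.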

Additional observations from a re-analysis of the deposited data

Results flagged for a closer look

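For 2 probes the TKO and STKO pairs moved 2-fold in opposite directions after ISD, and the difference was not tested. The probe ILMN_2735350, with no gene in the annotation, differed by -1.12 in TKO cells and by 1.98 in STKO cells. The probe ILMN_2504544, annotated to the mitochondrial gene ND5, differed by 1.45 in TKO cells, where it was not detected on the mock array, and by -1.004 in STKO cells.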

How the results depend on the processing

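No paired analysis was possible because each group holds 1 array, and for the same reason no replicate could be left out. No value of the text turned its direction past the threshold under any alternative. The count of 639 higher probes was 357 without background correction, 416 with an offset of 50, 364 by the authors' processed values, 1592 at 1.5-fold and 99 at 4-fold. The count of 235 lower probes was 48, 78, 52, 1296 and 9 in the same order, 500 under median scaling, and 106 when detection on both arrays was asked. Higher probes made up 73.1% of the calls with the main settings, 88.1% without background correction, 84.2% with an offset of 50, 87.5% by the authors' values, 47.8% under median scaling and 55.1% at 1.5-fold. With the TKO arrays normalized alone the counts were 625 and 215.

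Of the WT-induced probes in the band under 1.5-fold, 42.6% were 2-fold higher in TKO cells with the main settings. That share was 32.3% without background correction, 34.6% with an offset of 50, 32.4% by the authors' values, 26.9% with bands by the mean of both TKO arrays, and 36.8% among probes detected on all 4 WT and TKO arrays. In the band of 1.5- to 4-fold, the share of 34.3% was 27.1% under median scaling and 39.2% with bands by the mean. The median of the cytokine list, 1.72, was 1.06 without background correction, 1.27 with an offset of 50 and 1.06 by the authors' values, and that of the interferon list, 2.24, was 2.97 over all detected probes of each gene. Of 101 single probe values, 12 no longer passed 2-fold under median scaling, 8 without background correction, 6 with an offset of 50, 6 by the authors' values and 1 with the TKO arrays alone. Without background correction those were Ifi204, Aim2, Ifna6, Il1a, Parp9, Parp14, Rnf213 and Sp100. The size of a dim probe's rise is limited by its signal over background.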

Other observations

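The 69 probes that were 2-fold higher in TKO cells and rose under 1.5-fold in wild type included the genes below, chosen after their values were seen. The share of p53 or stress genes among the 69 was not counted, so no theme is drawn from them. Trp53inp1, a p53 target, read 8.08 on TKO mock and 9.71 on TKO ISD, against 8.91 and 8.53 in wild type, and it read 8.54 and 9.37 on the STKO arrays. Slc19a2, a thiamine transporter, read 8.54 and 9.81, against 9.25 and 8.98 in wild type. Nxf1, a nuclear export factor for mRNA, read 8.85 and 10.08, against 9.14 and 9.60. Trp53inp1, Slc19a2 and Nxf1 all had TKO mock levels below WT mock. A low TKO mock or a high WT mock reading favours the choice of such probes, so this is no separate result.

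Casp4, the inflammatory caspase, gave unlike values by its probes. The brighter one read 6.93 and 10.36 on WT mock and ISD and 9.75 and 11.24 on the TKO arrays. Another probe, ILMN_2811737, was not detected on either WT array, at 4.59 and 4.62, while it read 9.98 and 11.42 on the TKO arrays and 8.62 and 9.09 on the STKO arrays. The Fcer1g probe likewise was not detected on the WT arrays, at 4.49 and 4.64, and read 14.93 and 14.92 on the STKO arrays. For both probes, the wild-type arrays stood apart from the arrays of both other genotypes. Whether these arrays differ through other features of the cultures, such as strain background, was not tested.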
